A study of Mus musculus with 186 samples.

Results

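The comparison described here set the striatum of 4-week-old mice lacking both copies of Akap11 (KO) against that of 4-week-old mice carrying 1 copy (HET). Its 10 libraries, 5 KO and 5 HET, were chosen from 186 by region, age and genotype as labelled. The question was what loss of the second copy adds to loss of the first. The series covers 6 brain regions at 4 and 12 weeks in Akap11 mutant mice, in 36 groups. Frozen brains were dissected in a cryostat, and 200 ng of total RNA from each sample entered a stranded mRNA library kit. Both groups carry Akap11 mutant alleles and neither received a treatment that the labels name. The sources used here do not say how the alleles were made, nor the strain or sex. The 5 wild-type (WT) striatal libraries of the same age served to place the first step, HET against WT, beside the second. The 12-week KO and HET striatal libraries, 5 each from other animals by age, were the independent comparison. Nothing in the labels says that libraries of 1 group came from separate animals, so p-values measure the spread between these samples.

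AKAP11 is an A-kinase anchoring protein: it binds regulatory subunits of protein kinase A (PKA) and holds the kinase at chosen places in the cell, and it also binds GSK3 kinases and takes part in selective autophagy. PKA is released from its regulatory subunits by cAMP, which adenylyl cyclases make and phosphodiesterases break down. In the striatum, projection neurons read dopamine through this route: D1 receptors of the direct pathway raise cAMP, and D2 receptors of the indirect pathway lower it. Kinase signals then reach the nucleus and set immediate early genes such as those of the Egr and Fos families.

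The Akap11 gene itself (chr14:78492246-78536808, minus strand, mm10) matched the labels in every library. Levels are given as CPM, the read count of a gene after every library is scaled to one common total with TMM factors. WT libraries had 351.3 to 404 CPM. HET libraries 11, 162, 22, 93 and 931 had 206, 187, 183, 199.6 and 184.5 CPM, and KO libraries 12, 161, 163, 51 and 932 had 19.7, 15.7, 19.7, 19.9 and 19.8 CPM. The 3 genotypes did not overlap. Akap11 fell by 3.34 ± 0.08 on the log2 scale (fold change ± SE, 5 against 5; edgeR quasi-likelihood test, adjusted p = 2.73e-13), to 9.88% of the HET mean. The first copy's loss had lowered it by 0.96, to 51.5% of WT.

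Estimated counts summed to 31.1 to 62 M counts per HET library, 30.6 to 38.3 M per KO library and 33.7 to 71.2 M per WT library. The striatal label was checked on marker genes. Ppp1r1b, which encodes the dopamine-regulated phosphatase inhibitor DARPP-32, had 2637 to 3150 CPM in HET and 1660 to 5007 CPM in KO libraries. Libraries KO 51, 161 and 163 nevertheless stood apart. Slc17a7, the vesicular glutamate transporter of cortical excitatory neurons, had 874, 1110 and 519 CPM there, against 3.15 and 4.01 CPM in KO 12 and KO 932 and 3.1 to 85.3 CPM in HET libraries. The mean log2(CPM + 1) of the 14 tested cortical and hippocampal excitatory markers was 5.89, 6.11 and 5.26 in KO 51, 161 and 163, 2.43 and 2.47 in the other KO libraries and 2.53 to 3.9 in HET. In WT library 92 it was 5.22. All 14 of these markers had a higher mean in KO than in HET, with a median log2 change of 2.87, and 0 were called. With KO 51, 161 and 163 left out the median was -1.71. The same 3 libraries had the lowest mean log2(CPM + 1) of the 15 pan striatal projection neuron genes, at 8.39 to 8.86, against 9.24 to 9.4 in HET and 9.34 and 9.73 in KO 932 and KO 12. A further difference touched library KO 12, in which 5.17% of values above 0 were whole numbers, as in WT 914 (5.23%) and WT 92 (5.43%), against 17.4% to 24.2% in the other 12 libraries. No HET library shared that property of KO 12, and the count of calls is given also without KO 12. For the cortical markers, results below are given also without KO 51, 161 and 163, which leaves KO 12 and KO 932 as the KO group, or with the marker score as a covariate. In bulk tissue, fewer cells of a type and less RNA per cell cannot be told apart.

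**Figure D1:**
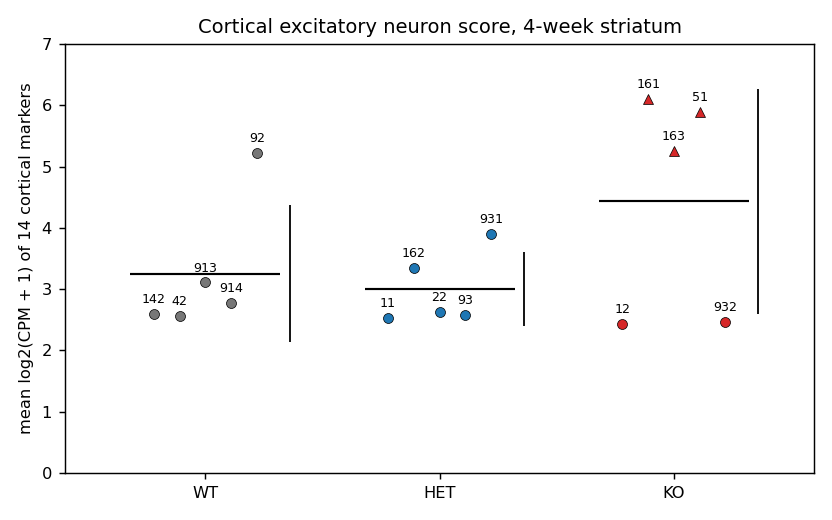
Mean log2(CPM + 1) of 14 cortical and hippocampal excitatory neuron markers in each 4-week striatal library, by genotype; points are libraries with their numbers, horizontal bars group means and vertical lines SDs. KO 51, 161 and 163 (triangles, 5.26 to 6.11) and WT 92 (5.22) lie above all HET libraries, whose highest value is 3.9.

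Striatal transcripts of the KO and HET groups differed in both directions at 4 weeks. Of 15425 genes tested, 599 (3.88%) were called at an adjusted p under 0.05 (edgeR quasi-likelihood test, Benjamini-Hochberg adjustment over all genes tested). Of these, 292 were higher in KO (1.89% of genes tested) and 307 were lower (1.99%). The median size of a called change was 0.56 on the log2 scale, and 130 called genes changed by more than 1, 60 upward and 70 downward. In 494 of the 599, no KO library overlapped any HET library, while 990 of all genes tested (6.42%) were separated in this way. DESeq2 called 1333 genes, 795 higher and 538 lower.

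The rises and the falls were set against where their genes are otherwise expressed. A gene was counted as cortex-enriched when its mean CPM in 12-week WT prefrontal and somatosensory cortex was at least 2 times that in 12-week WT striatum, in libraries that do not enter the comparison. Cortex-enriched genes made up 10.6% of the genes tested, 47.9% of the rises (140 of 292) and 1.63% of the falls (5 of 307). Striatum-enriched genes, defined by the opposite ratio, made up 8.77% of the genes tested and 44% of the falls (135 of 307). With the cortical score as a covariate, 324 genes were called (2.1%), 134 higher and 190 lower, and 271 of them were among the 599. Without KO 51, 161 and 163, 208 of 15780 were called (1.32%), 96 higher (0.608%) and 112 lower (0.71%), and 129 of them were among the 599, all with the same sign. Cortex-enriched genes were 32.8% of the rises and 2.11% of the falls with the covariate. Without the 3 libraries they were 12.5% of the rises and 11.6% of the falls, so that rises and falls held near-equal shares. There striatum-enriched genes were 21 of 96 rises and 40 of 112 falls. The part of the cortical signal in the other calls was not tested. Leaving out 1 library gave 1441 calls without KO 12 and 1236 without KO 932, the 2 KO libraries with low cortical scores. It gave 245 to 340 without any 1 HET library and 272 and 276 without KO 161 and KO 51.

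**Figure D2:**
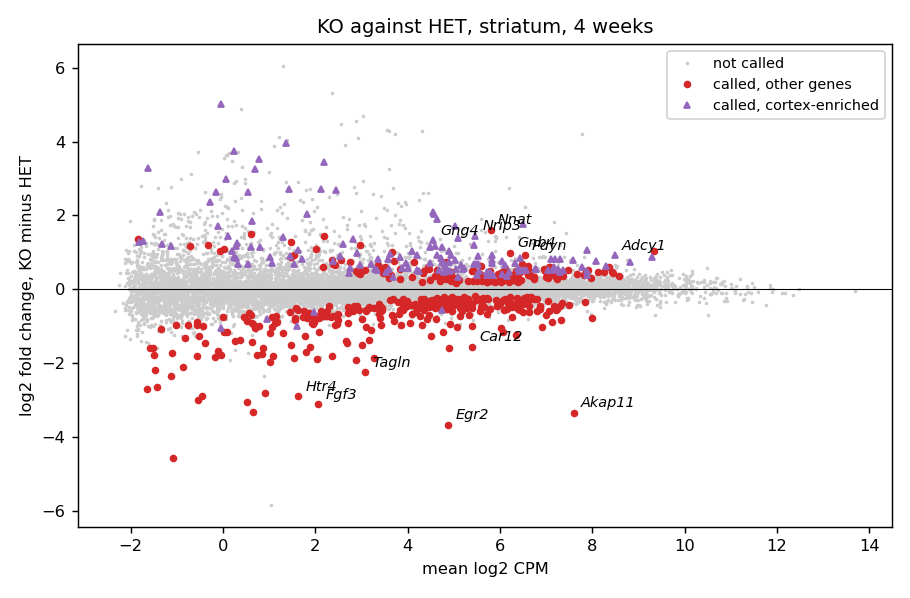
Log2 fold change KO minus HET against mean log2 CPM for the 15425 genes tested in 4-week striatum; gray points were not called, red points were called, and purple triangles were called and are cortex-enriched. Cortex-enriched calls comprise 140 rises and 5 falls, and Akap11 and Egr2 lie lowest among well-expressed genes.

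Egr2, a zinc-finger transcription factor of the early growth response family, had the largest fall of called genes with a mean log2 CPM of at least 1 (chr10:67535475-67542188, plus strand). HET libraries 11, 162, 22, 93 and 931 had 34.5, 31.8, 40.3, 42.4 and 72.5 CPM. KO libraries 12, 161, 163, 51 and 932 had 0.918, 4.01, 4.83, 4.47 and 3.07 CPM, so that every KO value lay far below every HET value. Egr2 fell by 3.66 ± 0.39 on the log2 scale (adjusted p = 6.92e-05), to 7.89% of HET. The change was -4.42 without KO 51, 161 and 163 (adjusted p = 0.0022) and -4.07 with the cortical score as covariate. WT libraries had 20.6 to 67.4 CPM, so HET and WT overlapped.

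Egr2 was the 1 called gene of 16 activity-regulated transcription factors, whose median log2 change was -0.43 against 0.000997 over all genes tested. Of all genes tested, 3.88% were called and 6.42% had groups that did not overlap. The relatives of Egr2 had lower means in KO without passing the edgeR test at 4 weeks. Egr1 had 632 to 818 CPM in HET and 347 to 512 CPM in KO libraries, which did not overlap, with a log2 change of -0.71 ± 0.23 (adjusted p = 0.0945). Egr3 (-0.56, adjusted p = 0.0864) also separated the groups, while Egr4 (-0.60, adjusted p = 0.367) did not. With DESeq2, Egr1 (adjusted p = 0.0317) and Egr3 (adjusted p = 0.0404) passed and Egr4 did not (adjusted p = 0.417). At 12 weeks Egr1 was called lower (-0.65, edgeR adjusted p = 0.0367). Egr3 (-0.53, adjusted p = 0.187) and Egr4 (0.16, adjusted p = 0.741) were not called there. Fos (-0.48), Junb (-0.65) and Nr4a1 (-0.59) overlapped between genotypes and were not called. The variation of Fos was wide within both groups, from 8.95 to 50.3 CPM in HET and from 6.69 to 25.2 CPM in KO. Egr3, Egr4 and Junb were chosen for naming after their values were seen.

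Among 16 effector genes that neuronal activity induces, Inhba and Homer1 fell, Ptgs2 rose and 13 were not called. Their median was 0.00108, and 3.88% of all genes tested were called. Inhba, which encodes the activin A subunit, had 6.74 to 10.3 CPM in HET and 2.08 to 3.99 CPM in KO libraries, a fall of 1.45 ± 0.18 (adjusted p = 0.000289). Homer1, a postsynaptic scaffold, had 248 to 333 CPM in HET and 124 to 234 CPM in KO, a fall of 0.77 ± 0.15 (adjusted p = 0.00957) that was -0.46 and not called without KO 51, 161 and 163 (adjusted p = 0.17). Ptgs2, the inducible prostaglandin synthase, rose by 1.85 ± 0.45. Its KO values were 4.45, 2.49 and 4.03 CPM in KO 161, 163 and 51 and 0.951 and 1.48 CPM in KO 12 and 932, and without the first 3 its change was 0.72 and not called (adjusted p = 0.51). Arc, which encodes a dendritic capsid-forming protein, ranged from 130 to 438 CPM in HET and 95.6 to 254 CPM in KO and was not called (-0.67, adjusted p = 0.23).

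The promoters of these 3 activity-linked genes that fell are shown because their letters can be read for cAMP and growth-factor response motifs. Each is the 250 bases before the RefSeq gene start on GRCm38.p6, plus strand, 5′ to 3′, at chr10:67535249-67535498 for Egr2, chr13:16011601-16011850 for Inhba and chr13:93303507-93303756 for Homer1, whose RefSeq start lies 4122 bases from the annotated start of the whole gene. Capitals mark the CRE core TGACG, part of the cAMP response element bound by CREB.
Egr2: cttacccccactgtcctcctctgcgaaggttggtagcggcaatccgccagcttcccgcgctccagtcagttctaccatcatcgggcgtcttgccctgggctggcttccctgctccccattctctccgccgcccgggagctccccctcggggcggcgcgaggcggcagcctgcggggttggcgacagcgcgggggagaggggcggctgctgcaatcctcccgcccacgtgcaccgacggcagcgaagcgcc
Inhba: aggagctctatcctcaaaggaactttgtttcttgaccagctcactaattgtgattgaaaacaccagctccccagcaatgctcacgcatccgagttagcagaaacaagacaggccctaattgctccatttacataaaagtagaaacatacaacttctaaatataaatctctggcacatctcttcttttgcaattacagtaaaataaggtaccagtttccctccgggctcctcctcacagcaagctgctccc
Homer1: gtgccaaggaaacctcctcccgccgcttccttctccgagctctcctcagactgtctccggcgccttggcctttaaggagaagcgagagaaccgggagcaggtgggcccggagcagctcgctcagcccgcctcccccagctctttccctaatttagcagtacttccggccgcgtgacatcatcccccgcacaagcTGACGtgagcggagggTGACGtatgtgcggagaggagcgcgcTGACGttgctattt

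The Homer1 window held 3 CRE cores. The Egr2 and Inhba windows held none of the 5 motifs searched on both strands: the core, the full CRE (TGACGTCA, which contains it), the EGR site GCGTGGGCG, the AP-1 site TGANTCA and the serum response CArG box. A RefSeq promoter window of 300 bases was matched for 11407 of the 15425 genes tested. The CRE core was present in 26.1% of these windows, in 16.3% of those of called falls (33 of 202) and in 26.5% of those of called rises (61 of 230). The full CRE was present in 2.74%, 1.98% and 4.35%, and the EGR site in 0.991%, 0.99% and 0%. A match is a string of letters, and its use in these cells was not measured.

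**Figure D3:**
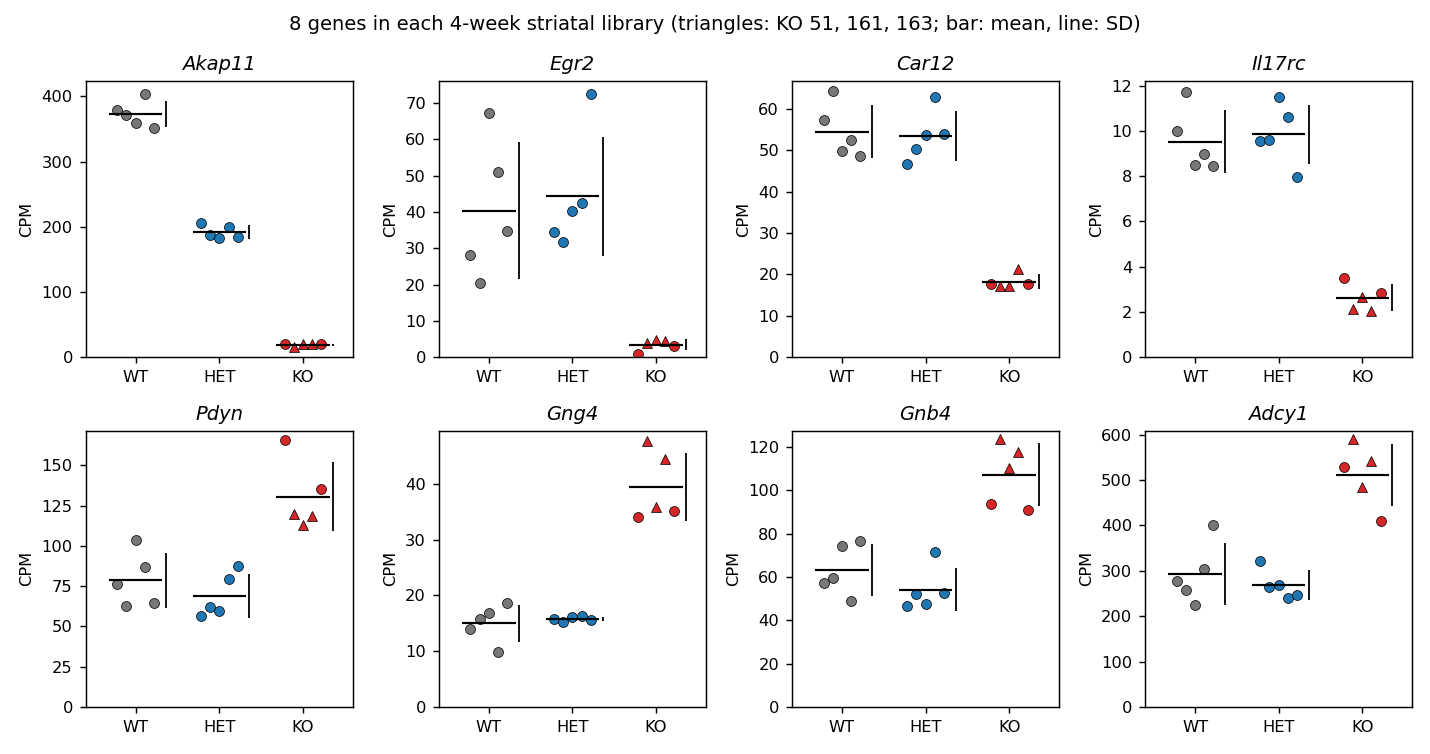
CPM of 8 genes in each 4-week striatal library by genotype, with axes from 0; points are libraries, triangles KO 51, 161 and 163, bars means and vertical lines SDs. Egr2, Car12 and Il17rc sit low in all 5 KO libraries, Pdyn, Gng4, Gnb4 and Adcy1 sit high in all 5, and the HET and WT values of these 7 genes overlap.

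Htr4, the serotonin receptor that couples to Gs and raises cAMP, had 3.92, 3.46, 4.07, 6.69 and 2.8 CPM in HET 11, 162, 22, 93 and 931, and 0.557, 0.521, 0.399, 0.527 and 0.818 CPM in KO 12, 161, 163, 51 and 932. No KO value reached any HET value, and Htr4 fell by 2.89 ± 0.26 (adjusted p = 1.15e-05), to 13.5% of HET. Ptger4, a prostaglandin E2 receptor that also raises cAMP, fell by 1.81 ± 0.26 (adjusted p = 0.000924), from 2.35 to 3.89 CPM in HET libraries to 0.417 to 1.28 CPM in KO libraries.

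Htr4 was 1 of 4 called members among 17 tested dopamine, opioid, cannabinoid and serotonin receptors, a list with a median of -0.16, where 3.88% of all genes tested were called. Htr6, another Gs-coupled serotonin receptor, fell by 0.58 ± 0.13 (8.01 to 11.2 CPM in HET, 5.16 to 7.27 CPM in KO, adjusted p = 0.0238). Htr1d, a Gi-coupled serotonin receptor, fell by 0.79 at the threshold (adjusted p = 0.0499). Without KO 51, 161 and 163 neither passed: Htr6 was at -0.58, the same size as with all libraries (adjusted p = 0.14), and Htr1d at -0.35 (adjusted p = 0.41). Htr1a, also Gi-coupled, rose by 2.71, from 1.26 to 1.49 CPM in HET to 20.5, 6.58 and 16 CPM in KO 161, 163 and 51. The other KO libraries had 1.25 and 2.17 CPM, and without the 3 high libraries the change was 0.28 (adjusted p = 0.85). Drd1 (-0.25) and Drd2 (-0.23), the receptors that define the direct and indirect pathways, were not called. Both had positive values without KO 51, 161 and 163 (0.28 and 0.33), and KO 12 was the higher of the KO libraries left. Drd1 had 570.6 CPM in KO 12 and 428.5 CPM in KO 932, against 366.6 to 438.2 CPM in HET. Drd2 had 376.8 and 294.7 CPM there, against 246.9 to 292.8 CPM in HET.

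Il17rc, a subunit of the interleukin-17 receptor, fell by 1.91 ± 0.15 (adjusted p = 5.94e-06). Its HET libraries 11, 162, 22, 93 and 931 had 9.56, 9.58, 11.5, 10.6 and 7.98 CPM, and KO libraries 12, 161, 163, 51 and 932 had 3.51, 2.11, 2.67, 2.05 and 2.84 CPM. The highest KO value was under the lowest HET value. Fgf3, a secreted fibroblast growth factor, fell by 3.12 ± 0.38 (adjusted p = 0.000239), from 3.13 to 10.8 CPM in HET to 0.384 to 1.02 CPM in KO. Fgf17, another ligand of the same family, fell by 2.10 at levels under 1 CPM in every library (adjusted p = 0.00221). It was named after its values were seen.

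Fst encodes follistatin, a secreted protein that binds activin, and it fell by 1.82 ± 0.22 (5.39 to 8.65 CPM in HET, 1.36 to 3.12 CPM in KO, adjusted p = 0.000222). Among 19 genes of the TGF-beta and BMP pathway list, Pmepa1 and Bmp6 fell, 0 rose and 17 were not called. The list's median was -0.17, and 3.88% of all genes tested were called. Pmepa1, an inhibitor of SMAD signalling, fell by 0.69 ± 0.12 (132 to 153 CPM in HET, 71.3 to 108 CPM in KO). Bmp6, a bone morphogenetic protein, fell by 0.93 ± 0.17 (5.51 to 7.53 CPM against 2.63 to 4.86 CPM). Neither passed without KO 51, 161 and 163, with -0.47 (adjusted p = 0.14) and -0.76 (adjusted p = 0.1). Acvrl1, a type I receptor of this family that was named after its values were seen, had 71.1 to 102 CPM in HET and 25.9 to 48.9 CPM in KO libraries. It fell by 1.17 ± 0.17 (adjusted p = 0.00101), and by 0.93 without those 3 libraries (adjusted p = 0.0055).

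Car12, a membrane-bound carbonic anhydrase (chr9:66713686-66766845, plus strand), had the smallest adjusted p of the named genes after Akap11. HET libraries 11, 162, 22, 93 and 931 had 46.6, 50.4, 53.6, 62.9 and 53.9 CPM, and KO libraries 12, 161, 163, 51 and 932 had 17.7, 17.3, 17.3, 21.4 and 17.6 CPM. The KO values were tightly grouped at 34.1% of the HET mean, a fall of 1.55 ± 0.09 (adjusted p = 2e-07). Gpx6, a glutathione peroxidase, fell by 1.85 ± 0.16 (10.6 to 15.9 CPM in HET, 2.64 to 4.96 CPM in KO). Pipox, the peroxisomal enzyme that breaks down pipecolate and sarcosine, fell by 1.70 ± 0.18. Tmprss6, a membrane serine protease best known for control of iron uptake, fell by 2.82 ± 0.23, from 1.98 to 4.37 CPM to 0.339 to 0.524 CPM. The intracellular serpin Serpinb1b fell by 1.98 ± 0.22.

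The other genes that the naming rule put among the 12 largest falls were Tagln, Impg1 and E230025N22Rik. Tagln, the smooth muscle protein transgelin, had 5.82 to 13.9 CPM in HET and 1.93 to 2.81 CPM in KO, a fall of 2.24 ± 0.20 (adjusted p = 1.29e-05). It was the 1 called gene of 14 endothelial and mural markers, whose median was -0.04, beside 3.88% of all genes called. Impg1, known as a matrix proteoglycan of the retina, fell by 1.90 ± 0.30 (adjusted p = 0.0023) and did not pass without KO 51, 161 and 163 (-1.72, adjusted p = 0.074). E230025N22Rik fell by 1.85 ± 0.22 (adjusted p = 0.000219).

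The opioid precursor Pdyn, whose product dynorphin is released by direct-pathway neurons, rose. HET libraries 11, 162, 22, 93 and 931 had 56.4, 61.8, 59.2, 79.1 and 87.3 CPM, and KO libraries 12, 161, 163, 51 and 932 had 166, 119.8, 113, 118 and 135 CPM. All 5 KO values lay above all HET values, and the rise was 0.92 ± 0.16 (adjusted p = 0.00384), or 1.9-fold. Pdyn was the 1 called gene of 9 direct-pathway genes, which had a median of -0.03, beside 3.88% of all genes called. With KO 51, 161 and 163 left out the median was 0.28 and 3 of the 9 were called. These 3 were all higher, beside 0.608% of all genes called higher there. With the cortical covariate 2 were called higher, where 2.1% of all genes were called in either direction. Tac1, the substance P precursor of the same neurons, was not called with all libraries (0.25, adjusted p = 0.518) and was 0.74 without KO 51, 161 and 163 (adjusted p = 0.011). Among 7 tested indirect-pathway genes, with a median of -0.30, Ptprm, a receptor tyrosine phosphatase, fell by 0.32 ± 0.06. Penk (-0.10) and Adora2a (-0.30), the enkephalin precursor and an adenosine receptor, were not called. None of the 15 pan striatal genes was called at 4 weeks, with a median of -0.33, and the median was 0.22 without KO 51, 161 and 163. Their mean log2(CPM + 1) was 9.73 in KO 12 and 9.34 in KO 932, against 9.24 to 9.4 in HET. WT 914 and WT 92, which shared the low share of whole numbers of KO 12, had 9.73 and 9.41. At 12 weeks, 5 of these 15 pan striatal genes were called lower and 0 higher, beside 2.94% of all genes called lower. Their median change at that age was -0.27. On the same score, 12-week KO libraries spanned 8.96 to 9.18, against a HET range of 9.18 to 9.44. The cause of these lower values was not tested.

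Gng4, a G protein gamma subunit, had 15.8, 15.2, 16.1, 16.2 and 15.5 CPM in HET 11, 162, 22, 93 and 931 and 34.1, 47.7, 35.9, 44.5 and 35.2 CPM in KO 12, 161, 163, 51 and 932. The HET libraries were nearly equal and every KO library was higher, a rise of 1.32 ± 0.14 (adjusted p = 5e-05). Gnb4, a beta subunit, rose by 0.99 ± 0.14 (46.7 to 71.3 CPM in HET, 91 to 124 CPM in KO, adjusted p = 0.000916). Without KO 51, 161 and 163, Gng4 was still called at 1.13 (adjusted p = 0.0024) and Gnb4 at 0.77 (adjusted p = 0.045). Gng3 rose by 0.52 ± 0.12, and not without those libraries (0.30, adjusted p = 0.33). The other 20 of 23 G protein and RGS genes were not called, and the list's median was 0.11, beside 3.88% of all genes called.

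Adcy1, the calcium-stimulated adenylyl cyclase, had 322, 265, 268, 240.4 and 247 CPM in HET 11, 162, 22, 93 and 931 and 529, 591, 485, 542 and 410.3 CPM in KO 12, 161, 163, 51 and 932. The groups were separate, and the rise was 0.93 ± 0.14 (adjusted p = 0.00189). It was 0.81 without KO 51, 161 and 163 (adjusted p = 0.049). Pde4a, a cAMP phosphodiesterase, rose by 0.43 ± 0.11 (adjusted p = 0.0483), with 1 KO library inside the HET range, and was at 0.16 without those libraries (adjusted p = 0.49). These were the 2 called of 19 adenylyl cyclases and phosphodiesterases, with a median of 0.05, beside 3.88% of all genes called.

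PKA itself showed no called subunit. Of 9 PKA subunits and inhibitors, 0 were called, beside 3.88% of all genes tested, with a median of 0.18. The catalytic subunit gene Prkaca had 178 to 200.1 CPM in HET and 205 to 263 CPM in KO, with a change of 0.24 ± 0.09 (adjusted p = 0.13). Its groups did not overlap, as for 6.42% of all genes tested. The regulatory subunit genes Prkar1b (0.64, adjusted p = 0.087) and Prkar2a (0.48, adjusted p = 0.0508) had their highest values in KO 161 and 51. Without KO 51, 161 and 163 they were 0.22 and 0.10. Prkar1a, another regulatory subunit gene, was at 0.11 ± 0.13 (adjusted p = 0.692). Of 13 AKAP11 partners, which include the GSK3 kinases, VAP proteins and LC3 family, 0 were called (median 0.03), again beside 3.88%. Gsk3a was at 0.07 and Gsk3b at -0.22. At 12 weeks Gsk3b was the 1 called of the 13 partners (-0.33, adjusted p = 0.0201), beside 4.79% of all genes.

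Further rises, of genes that are not cortex-enriched, covered varied products. Of the rises given above, Gng4, Gng3, Adcy1, Ptgs2 and Htr1a were cortex-enriched, with cortex to striatum ratios of 2.13, 2.41, 3.68, 8.97 and 8.85. Nnat, the imprinted proteolipid neuronatin, rose by 1.62 ± 0.37 (22.4 to 35.4 CPM in HET, 54.2 to 152 CPM in KO, adjusted p = 0.025), and at 0.92 was not called without KO 51, 161 and 163 (adjusted p = 0.32). Tunar, a transcript first described as a long noncoding RNA, rose by 1.19 ± 0.16 (4.91 to 6.27 CPM in HET, 11 to 16.6 CPM in KO, adjusted p = 0.00058). Hpcal4, a neuronal calcium sensor, rose by 1.03 ± 0.22 and was at 0.60 without those libraries (adjusted p = 0.29). Lancl3 rose by 1.27 ± 0.17 and the uncharacterised E530001K10Rik by 1.44 ± 0.22, and both were also called without the 3 libraries. The symbol E530001K10Rik had no match in the annotation used for positions. The orphan receptor Gpr21 rose by 1.09 and Lor, known as a cornified envelope protein of skin, by 0.93, and neither was called without them.

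With a mean log2 CPM of at least 1, the 4 largest cortex-enriched rises that separated the groups were Hs3st2, Adgra1, Vsnl1 and Fam81a, and each was highest in KO 51, 161 and 163. Hs3st2, a heparan sulfate sulfotransferase, had 9.1 to 13 CPM in HET, 74.8, 44.2 and 59.7 CPM in KO 161, 163 and 51, and 22.8 and 22.1 CPM in KO 12 and 932. Its rise was 2.08 ± 0.41 (adjusted p = 0.0107), 1.09 without those 3 (adjusted p = 0.26) and 1.2 with the cortical covariate (adjusted p = 0.0004). Vsnl1, a calcium sensor, rose by 1.76 and was at 0.32 without them (adjusted p = 0.78). Adgra1, an adhesion G protein-coupled receptor, rose by 2.04 and Fam81a by 1.71, with 0.73 and 0.69 without them, and neither then passed. With the cortical covariate Adgra1 (0.95, adjusted p = 0.0019) and Fam81a (0.90, adjusted p = 0.00022) passed and Vsnl1 did not (0.57, adjusted p = 0.059). At 12 weeks Hs3st2 (1.01, adjusted p = 4.02e-05), Adgra1 (1.19, adjusted p = 0.000201) and Fam81a (0.94, adjusted p = 0.00166) were called. Vsnl1 was not called there (0.48, adjusted p = 0.126).

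Nrip3, named after its values were seen, was cortex-enriched and rose in all 5 KO libraries. It had 32.1, 29.9, 29.3, 24.5 and 25.3 CPM in HET 11, 162, 22, 93 and 931 and 79.9, 92.4, 56.1, 85.5 and 72.1 CPM in KO 12, 161, 163, 51 and 932. KO 12 and 932, with low cortical scores, were within the range of the other 3. The rise was 1.45 ± 0.17 (adjusted p = 0.000208), and 1.43 without KO 51, 161 and 163 (adjusted p = 0.0027).

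Of 20 glutamate receptors, 1 rose, 2 fell and 17 were not called (median 0.02), beside 3.88% of all genes called. Grm2, a presynaptic metabotropic receptor that rose by 3.44, had 22.2, 6.13 and 21.9 CPM in KO 161, 163 and 51 against 0.689 to 1.41 CPM in HET. KO 12 and 932 had 0.82 and 0.972 CPM, and without the 3 high libraries the change was -0.09 (adjusted p = 0.97). Grik2, a kainate receptor subunit, fell by 0.48 ± 0.12 (adjusted p = 0.0361) and was at -0.19 without those libraries (adjusted p = 0.39). Of 18 postsynaptic density genes (median 0.02), the scaffold gene Dlgap1 rose by 0.82 and was at 0.16 without them (adjusted p = 0.68). Of 18 voltage-gated potassium channels (median -0.15), Kcnh3 fell by 0.55 ± 0.09, from 153 to 169 CPM in HET to 97 to 118 CPM in KO (adjusted p = 0.00404). It was at -0.53 without the 3 libraries (adjusted p = 0.06).

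The remaining signalling lists gave single calls, beside 3.88% of all genes called. Spred3, an inhibitor of the Ras and ERK cascade, rose by 0.44 ± 0.09 and was the 1 called gene of 11 ERK feedback inhibitors (median 0.02). Ppp1r1a, inhibitor 1 of protein phosphatase 1 and itself a PKA substrate, fell by 0.37 ± 0.08 (71.1 to 78.5 CPM in HET, 51.8 to 61.4 CPM in KO, adjusted p = 0.0203). It was the 1 called gene of 11 in the striatal phosphatase network (median -0.10), which includes Ppp1r1b at -0.06. Sst, the somatostatin precursor, rose by 0.62 ± 0.15 and was the 1 called of 12 striatal interneuron genes (median 0.18). These 3 genes did not pass without KO 51, 161 and 163, while their changes were 0.45 for Spred3 (adjusted p = 0.051), -0.30 for Ppp1r1a (adjusted p = 0.23) and 0.60 for Sst (adjusted p = 0.19).

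Of 22 extracellular matrix genes, Col25a1 and Has3 rose, Col1a1 fell and 19 were not called (median -0.04), beside 3.88% of all genes called. Has3, a hyaluronan synthase, rose by 0.66 ± 0.16 (7.04 to 9.99 CPM in HET, 8.78 to 17.2 CPM in KO, adjusted p = 0.0351), with KO 161 inside the HET range. Col25a1, a brain membrane collagen, rose by 0.52 ± 0.08 (36.3 to 38.4 CPM against 48.1 to 58.3 CPM, adjusted p = 0.00137). Without KO 51, 161 and 163, Has3 was at 0.90 (adjusted p = 0.01) and Col25a1 at 0.43 (adjusted p = 0.053). Col1a1, a fibrillar collagen, fell by 0.60 ± 0.15 (adjusted p = 0.0394) and was at -0.72 without them (adjusted p = 0.15).

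None of 24 nuclear-encoded oxidative phosphorylation genes (median 0.03), 25 cytosolic ribosomal protein genes (median 0.03) or 20 autophagy genes (median -0.03) was called, beside 3.88% of all genes tested. Of 20 lysosomal genes (median 0.04), the proton pump subunit gene Atp6v1a rose by 0.59 ± 0.13. Of 18 sterol synthesis genes (median 0.15), the mevalonate kinase gene Mvk rose by 0.32 ± 0.08. Neither passed without KO 51, 161 and 163 (0.43, adjusted p = 0.2, and 0.19, adjusted p = 0.3). Of 15 interferon response genes (median -0.04), Ifi27l2a fell by 2.33 ± 0.34, at levels under 1 CPM in every library.

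Among markers of other cell types, none of 17 oligodendrocyte and myelin genes (median 0.04) or 6 tested choroid plexus and ependymal genes (median -0.25) was called, beside 3.88% of all genes tested. Of 12 astrocyte markers (median -0.06), the water channel gene Aqp4 fell by 0.57 ± 0.12. Its HET libraries had 70.2 to 91 CPM and KO libraries 12, 161, 163, 51 and 932 had 49.6, 41.5, 70.6, 49.6 and 45 CPM, so that 1 KO library lay inside the HET range. Aqp4 was at -0.68 without KO 51, 161 and 163 (adjusted p = 0.0064). All 12 microglia markers had negative changes (median -0.24). The complement gene C1qb passed, at -0.29 ± 0.07, and did not pass without those libraries (-0.18, adjusted p = 0.38). Of 10 thalamic and septal markers (median 0.13), the cation channel gene Trpc4 rose by 0.79 ± 0.14 and was at 0.53 without them (adjusted p = 0.14).

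Loss of the first copy was set beside loss of the second in the same 15 libraries. HET against WT gave 1 called gene of 15425 (0.00648%), Akap11 itself, 292 genes (1.89%) at an unadjusted p under 0.05 and 2 called genes with DESeq2. The 1.89% is a smaller share than the 0.05 that this threshold alone would give. The single call therefore does not show that other genes were unchanged. KO against WT gave 516 (3.35%), 246 higher (1.59%) and 270 lower (1.75%). These comparisons share libraries with KO against HET. The difference between the steps, KO minus HET less HET minus WT, was tested within the fit and was called for 30 genes (0.194%), 27 with a lower (0.175%) and 3 with a higher second step (0.0194%), and for 105 with DESeq2. Without 1 library the count ran from 12 (without HET 22) to 40 (without KO 932).

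For Akap11 the second step was larger by 2.38 on the log2 scale. In CPM its 2 falls were of similar size, with means of 373 in WT, 191.9 in HET and 18.97 in KO. Of the other 29 genes, Car12 changed by -0.03 in the first step and -1.55 in the second (difference -1.53 ± 0.16, adjusted p = 0.000317). Tmprss6 changed by 0.48 and then -2.82 (difference -3.30, adjusted p = 0.000428), and Gpx6 by 0.32 and then -1.85 (difference -2.17, adjusted p = 0.000869). Egr2 changed by 0.13 and -3.66 (adjusted p of the difference 0.00944), Htr4 by -0.01 and -2.89 (0.00358) and Il17rc by 0.05 and -1.91 (0.00183). The 3 genes with a higher second step were Gng4 (0.07 and 1.32), the ephrin receptor gene Epha10 (0.04 and 1.14) and Prrg3 (-0.02 and 0.57). All 3 were cortex-enriched, with cortex to striatum ratios of 2.13, 2.93 and 2.14. For Pdyn the steps were -0.19 and 0.92, and their difference of 1.12 did not pass (adjusted p = 0.177).

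**Figure D4:**
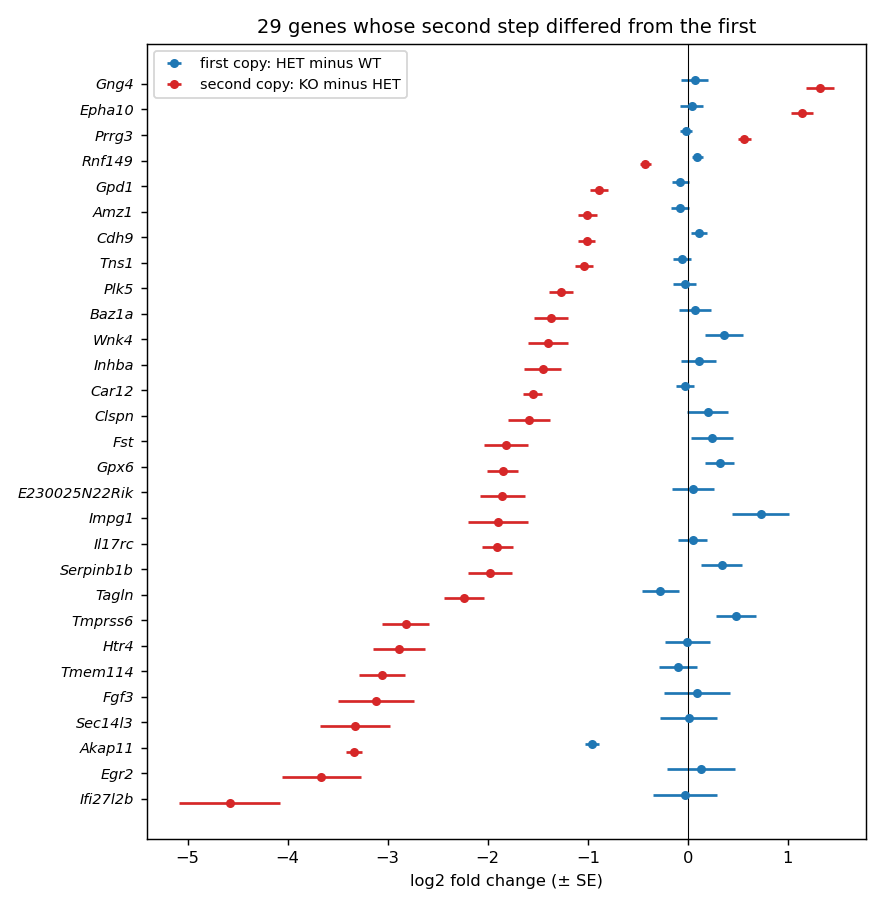
Log2 fold change with SE for the first step (HET minus WT, blue) and the second (KO minus HET, red) in 29 of the 30 genes whose steps differed in 4-week striatum. Apart from Akap11 (-0.96), first-step values lie between -0.28 and 0.73, while second-step values run from -4.58 to 1.32; both comparisons use the same HET libraries.

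The 12-week striatum, from other libraries, gave the same contrast without the high cortical scores. Cortical scores there were 3.44 to 3.67 in HET and 3.42 to 3.76 in KO libraries. KO against HET gave 749 calls of 15622 genes (4.79%), 290 higher (1.86%) and 459 lower (2.94%), and 953 (6.1%) had groups that did not overlap. Leaving Akap11 aside, 593 of the 4-week calls were also tested at 12 weeks. There 573 (96.6%) kept their sign, against 64.5% of all 15262 genes with a test at each age. Calls at each age were shared by 271 genes, 114 rising and 157 falling, all in 1 direction across ages. They were 45.7% of the 4-week calls and 36.4% of the 12-week calls. Over these 271 genes, which were selected by both tests, the log2 changes had a Pearson r of 0.942, and over all genes Spearman's rho was 0.431. Genes are not independent replicates and no p is given. Of the 4-week falls, 51.5% were called at 12 weeks (157 of 305), of the rises that are not cortex-enriched 42.8% (65 of 152) and of the cortex-enriched rises 36% (49 of 136).

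Egr2 had 11.6 to 37.3 CPM in HET and 0.946 to 6.09 CPM in KO libraries at 12 weeks, a fall of 3.25 ± 0.46 (adjusted p = 0.000487). Pdyn had 62.1 to 131 CPM and 143 to 233 CPM, a rise of 0.92 ± 0.23 (adjusted p = 0.0299). Gng4 (1.15), Gnb4 (1.06) and Adcy1 (0.81) rose and Car12 (-1.32), Il17rc (-1.47) and Gpx6 (-2.21) fell at 12 weeks. Named 4-week calls that did not pass without KO 51, 161 and 163 were mixed at 12 weeks. Hs3st2, Adgra1, Fam81a, Hpcal4, Sst, Col25a1, Atp6v1a and Trpc4 were called higher there. Pmepa1, Kcnh3, Htr6, Impg1, Grik2 and Ptprm were called lower. The others of these, among them Vsnl1, Nnat, Bmp6, Homer1, Htr1a and Grm2, were not called at 12 weeks. Htr4 fell by 1.35 at 12 weeks and 2.89 at 4 weeks, and Fgf3 by 1.30 and 3.12. The difference between ages was not called for either (adjusted p = 0.519 for both). No gene of 15990 passed the test of a difference between ages, with 1278 (7.99%) at an unadjusted p under 0.05, a smallest adjusted p of 0.112 and 1 call with DESeq2.

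**Figure D5:**
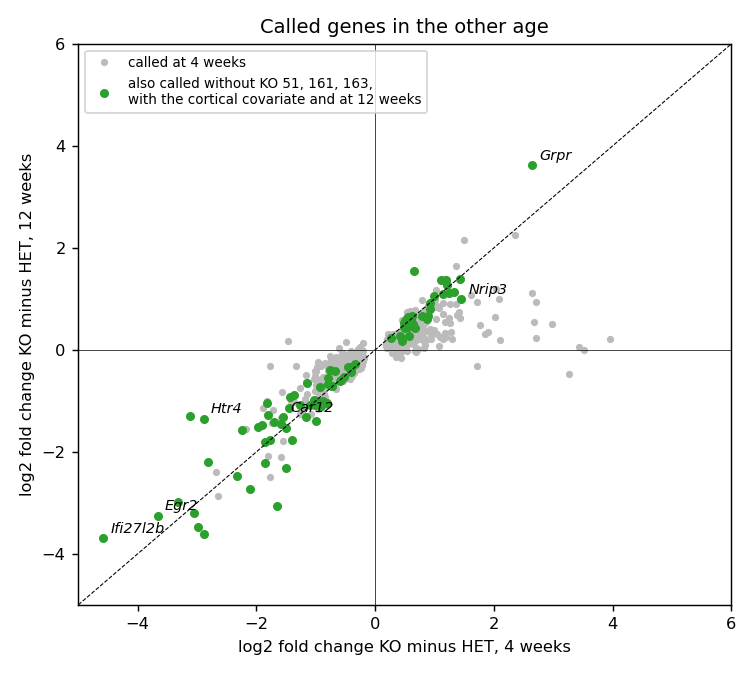
Log2 fold change KO minus HET at 12 weeks against that at 4 weeks for genes called at 4 weeks besides Akap11; green points were also called without KO 51, 161 and 163, with the cortical covariate and at 12 weeks. The dashed line marks equal change, and 573 of the 593 points have the same sign at both ages.

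A set of 89 genes besides Akap11 was called with all libraries, without KO 51, 161 and 163, with the cortical covariate and at 12 weeks. It held 33 rises and 56 falls, with a median change of 1 in size, and 10 of the 89 were cortex-enriched and 36 striatum-enriched. The genes below were named after their values were seen. Falls at low level included Ifi27l2b, 0.487 to 0.757 CPM in HET and 0 to 0.0656 CPM in KO libraries, and Ccr6, a chemokine receptor at 0.712 to 1.28 CPM in HET and 0 to 0.295 CPM in KO. Sec14l3 (-3.33), Tmem114 (-3.06) and the acyl hydrolase gene Aoah (-2.99) fell as well. Grpr, the receptor of gastrin-releasing peptide and a cortex-enriched gene (ratio 5.24), rose by 2.64 ± 0.42 (adjusted p = 0.00221). It had 0.366, 0.152, 0.198, 0.695 and 0.152 CPM in HET 11, 162, 22, 93 and 931 and 2.79, 1.04, 1.94, 2.17 and 2.38 CPM in KO 12, 161, 163, 51 and 932. The groups did not overlap, and at 12 weeks Grpr rose by 3.63 (adjusted p = 0.00111).

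Other members of the 89 were better expressed. Cdh9, a classical type II cadherin, had 38.5 to 43.8 CPM in HET and 19.6 to 21.4 CPM in KO libraries, a fall of 1.01 ± 0.09 (adjusted p = 7.14e-06). Tns1, which links integrins to actin, fell by 1.04 (66.7 to 84 CPM against 33.3 to 45.2 CPM). Gpd1, the cytosolic glycerol-3-phosphate dehydrogenase, fell by 0.89 (155 to 167 CPM against 81.3 to 96.2 CPM). Each of these 3 separated the groups in every library.

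Lrrtm1, a postsynaptic adhesion protein, fell by 0.76 (79 to 101 CPM in HET, 45.4 to 60 CPM in KO), and the polo-like kinase gene Plk5 fell by 1.27. Of the synaptotagmins, calcium sensors of vesicle release, Syt9 fell by 0.97 (19.7 to 29.7 CPM against 10.4 to 13.9 CPM) and Syt5 rose by 0.61 (103 to 121 CPM against 155 to 198 CPM). Cacng7, an auxiliary subunit of AMPA receptors, rose by 0.64, the amino acid transporter gene Slc7a8 by 0.68 and the sodium, calcium and potassium exchanger gene Slc24a3 by 0.56. Adarb1, an enzyme that edits adenosines in RNA, rose by 0.42 ± 0.07 (138.8 to 153 CPM against 177 to 206 CPM, adjusted p = 0.00405).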

How the data were processed

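The authors deposited 1 table of expected counts (estimated counts, which need not be whole) for 28338 gene symbols, made from the reads with Salmon and mm10, per the submitters' processing notes. The sources used here give no versions, annotation or use of strand, so overlapping, antisense and near-identical genes are uncertain. Expected counts were rounded to whole numbers. The 15 libraries of 4-week striatum entered 1 fit in edgeR 4.0.16 (R 4.3.3; filterByExpr by genotype, TMM, glmQLFit, glmQLFTest), with Benjamini-Hochberg adjustment over all genes tested and calls at an adjusted p under 0.05. The SE is the log2 change divided by the square root of F. The step difference is a contrast of that fit, and the age difference an interaction in a fit of both ages. DESeq2 1.42.0 and sva 3.50.0 gave alternatives. The procedure was tested on simulated data. Positions are GENCODE M21 on GRCm38, matched by symbol for 95.4%; promoters are RefSeq on GRCm38.p6.

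Named genes were Akap11 and 22 preset genes, the 12 largest falls, 8 largest rises and 4 largest cortex-enriched rises among called genes with a mean log2 CPM of at least 1 and no overlap between groups, up to 3 called members of each of 31 lists, and 3 genes of the step difference; others are stated, and a few genes are not reported here. The members and lists were chosen with earlier results of these data known. Of 30 replicate pairs, the most alike had a chi-square per degree of freedom of 9.87, above sampling noise. Alternatives were DESeq2, another scaling, no filter, a cortical score covariate, 1 surrogate variable, fewer genotypes, and libraries left out.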

Additional observations from a re-analysis of the deposited data

Results flagged for a closer look

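In 232 groups of 5 libraries (named genes by genotype), 16 (6.9%) had 1 library far from the others, with a gap of over 0.71 of the range; chance gives about 1 in 20. Among HET libraries, HET 931 was apart in 5: Egr2 was high at 72.5 CPM (others 31.8 to 42.4), Aqp4 at 90.9 (70.2 to 74.7) and Pde4a at 79.2 (68.7 to 71.6), while Prkacb was low at 577 (644 to 664) and Lancl3 at 1.43 (1.83 to 1.96). HET 93 was high for Gnb4 at 71.3 CPM (46.7 to 52.4), Sec14l3 at 3.75 (1.55 to 1.9) and Ptprf at 150 (116 to 122), and HET 11 was high for Adarb1 at 153 (139 to 141). Among KO libraries, KO 12 was high for Prkar1a at 828 CPM (538 to 591) and Gsk3a at 250 (200 to 207). KO 161 was low for Akap11 at 15.7 CPM (19.7 to 19.9) and Plk5 at 7.5 (12.1 to 12.8). KO 51 was high for Tunar at 16.6 CPM (11 to 12.6) and Car12 at 21.4 (17.3 to 17.7), and KO 163 for Aqp4 at 70.6 (41.5 to 49.6). For Egr2, Lancl3, Tunar, Gnb4, Car12, Sec14l3, Plk5, Ptprf, Adarb1 and Akap11 these libraries left the KO and HET groups separate.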

How the results depend on the processing

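DESeq2 called 1333 genes for KO against HET at 4 weeks, 2 for HET against WT, 978 for KO against WT, 105 for the step difference, 1177 for KO against HET at 12 weeks and 1 for the age difference. KO against HET at 4 weeks gave 324 with the cortical covariate, 336 with 1 surrogate variable, 208 without KO 51, 161 and 163, and 295 without these and WT 92, a setting chosen after seeing the data. KO against WT gave 174 with only those 2 genotypes. Leaving out 1 library gave 245 to 1441 for KO against HET at 4 weeks, 1 to 2 for HET against WT (2 without HET 93), 263 (without WT 914) to 1141 (without KO 12) for KO against WT, 12 to 40 for the step difference, 447 (without HET 5) to 710 at 12 weeks, and 0 to 1 (without 4-week KO 163) for the age difference. Apart from the changes made by fewer samples or genotypes, the cause was not tested.

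Of 93 called named genes, 92 kept their direction in all 7 settings (6 for Aoah, not tested with only 2 genotypes) and in the 15 fits without 1 library, Grm2 being the exception (-0.0883 without KO 51, 161 and 163). In all of these settings 56 passed, and 68 passed without each library. Genes that were not called and changed sign were Drd1 (0.278 without KO 51, 161 and 163, 0.0802 with the surrogate variable), Drd2 (0.329, 0.112, and 0.0133 with the cortical covariate), Penk (0.406, 0.197, 0.11), Ppp1r1b (0.507, 0.267, 0.161), Adora2a (0.253, 0.0452), Prkar2b (0.131, 0.0216) and Gsk3b (0.0377). Leaving out 1 library gave Penk -0.382 (without KO 12) to 0.0229 (without KO 161; 0.00155 without KO 51) and Ppp1r1b -0.364 to 0.0826 (0.0786 without KO 51). Prkar1a ran from -0.0177 (without KO 12) to 0.158 (without KO 163).

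No paired analysis was possible at 4 weeks because KO and HET libraries share no replicate numbers. At 12 weeks the correlations of same-numbered libraries ran from -0.342 to 0.473, and the numbers were not taken as pairs. With the replicate block 1291 genes were called there, against 749 without it. Why the block raised the count was not tested.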
